A study of Mus musculus with 48 samples.

Results

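The genes of the proteasome were followed through the first week after permanent occlusion of the middle cerebral artery (MCAO) in mouse cortex. They were taken by symbol as every *Psma*, *Psmb*, *Psmc*, *Psmd*, *Psme*, *Psmf* and *Psmg* gene followed by a number, which gave 48 of the 46983 genes in the count tables. The rule read no measured value. Of the 48, 8 encode the α ring of the 20S core, 8 its β ring in the constitutive form, 3 the inducible β subunits of the immunoproteasome, 6 the ATPases of the 19S regulatory particle, 4 the alternative activators, 1 the inhibitor Psmf1 and 4 the assembly chaperones of the core. The constitutive β group here includes *Psmb11*, a thymus variant that is not a constitutive subunit, and the α group includes *Psma8*, a testis variant. The 14 *Psmd* genes are called the non-ATPases of the 19S particle here, although *Psmd5*, *Psmd9* and *Psmd10* encode chaperones of its assembly and not subunits.

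RNA of 48 brain samples, called cortex here, was sequenced from the 3′ end of its transcripts (QuantSeq), one library a sample. Intact cortex of 3-month-old mice was the control (4 libraries), and MCAO and sham groups were collected 3 h, 12 h, 24 h, 3 days and 7 days after surgery, with 4 libraries in each sham group and 5 in each MCAO group except that at 24 h, which had 4. All mice, operated and control, were 3-month-old C57Black/6 males with no other allele or agent. Sham mice had the same operation without coagulation of the artery, and the model gives a small parietal infarct. The paper's methods name the injured cortical region as the tissue, with both affected and non-affected parts. Its results speak instead of almost the whole hemisphere on the injured side, so tissue other than cortex may be included. Replicates carry letters from A to E and the labels call them separate samples. Since the labels do not say which letter came from which animal, p-values measure the spread between these samples.

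The proteasome is the main machine for degrading ubiquitin-tagged proteins. Its barrel-shaped 20S core holds 3 kinds of catalytic site, carried by Psmb5 (chymotrypsin-like), Psmb6 (caspase-like) and Psmb7 (trypsin-like). Interferon induces the alternatives Psmb8, Psmb9 and Psmb10, which take the places of Psmb5, Psmb6 and Psmb7 in newly built cores, and the 11S activator made of Psme1 and Psme2, and the peptides that result are loaded on MHC class I. The 19S particle recognises, deubiquitinates, unfolds and feeds in the substrate. In the brain, neurons and glia carry mostly the constitutive form, and microglia and infiltrating leukocytes are known for the immunoproteasome.

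Each library held between 1522668 and 2826735 counts on genes, and 4 libraries stood apart from the rest on the first component of the deviations from the group means (7604 genes, 23.0% of the variance). The libraries sham 12 h A (score −40.1), MCAO 12 h D (−39.5) and sham day 7 D (−32.7) lay at one end and sham 12 h C (35.5) at the other, with the other 44 between −15.9 and 20.5. Calls of proteasome genes at single times that ended without them are given with and without them. For single genes outside the proteasome, values without them are not given. The summed level of 10 neuronal markers was 11109 to 12176 CPM (counts per 1000000, scaled by TMM) in control cortex. The markers of microglia summed to 440 to 598 CPM and those of neutrophils to 2.79 to 14.6 CPM there. In bulk tissue, fewer cells of a type and less RNA per cell cannot be told apart.

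In control cortex the summed RNA of the proteasome genes lay mostly in the 19S particle and the constitutive core, which also hold the most genes. Each transcript gives reads near its end, so CPM of different genes need no correction for length. Other differences between genes in the share of reads counted were not corrected, such as reads that may be lost to pseudogenes of *Psmb5*, *Psmb6* and *Psmb7*. The 14 non-ATPases summed to 1970 ± 35.7 CPM (SD, n = 4), the 6 ATPases to 918 ± 77.9, the α ring to 785 ± 53 and the constitutive β ring to 760 ± 60.3. The 4 activators reached 183 ± 17.4 CPM, the assembly chaperones 91.3 ± 6.3 and the 3 immuno-subunits 42.2 ± 3.38. Over all 48 libraries the highest mean levels were those of *Psmc1*, an ATPase (320 CPM), *Psmd4*, a ubiquitin receptor (282 CPM), *Psmb4* (270 CPM) and *Psma7* (255 CPM). Subunits that stand in equal number in the assembled particle differed widely in counted CPM: *Psmb5*, *Psma5* and *Psmb2* averaged 23.6, 21.8 and 20.5 CPM. The lowest expressed members were *Psmb8* (7.86 CPM), *Psmb9* (2.75 CPM) and the α and β variants of testis and thymus, *Psma8* and *Psmb11*, with 34 and 20 counts in all 48 libraries together. All 48 genes passed the filter of more than 10 counts in total, but no level can be read for *Psma8* and *Psmb11*, which were absent from most libraries.

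**Figure D1:**
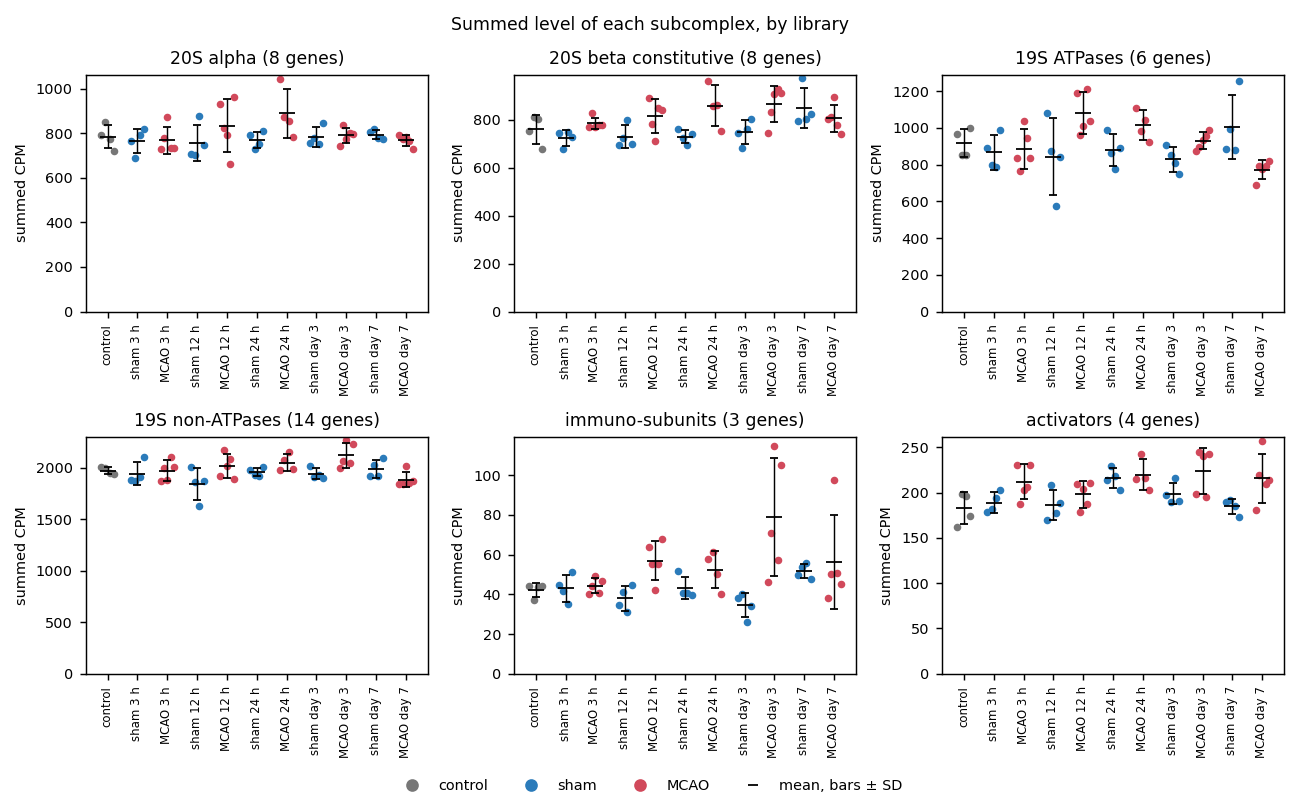
Summed level (CPM, linear axis from 0) of 6 subcomplexes in each library, by group along the horizontal axis. Points are libraries (grey control, blue sham, red MCAO), and the black line and bars are mean ± SD. The immuno-subunits reached 115 CPM in MCAO day 3, and the 19S ATPases of MCAO day 7 lay below all sham day 7 libraries.

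The summed levels are given first for the large α ring and then for the small group of immuno-subunits. The α ring summed to 791 ± 34.3 CPM in MCAO day 3 (n = 5) and 784 ± 43.9 in sham day 3 (n = 4), and to 768 ± 25.6 and 794 ± 21.9 CPM on day 7. The 3 immuno-subunits together were at 46.4, 70.9, 115, 57.1 and 105 CPM in the MCAO day 3 libraries A to E and at 38.1, 40.2, 26.2 and 34.2 CPM in the sham libraries A to D, without overlap. On day 7 their sums overlapped, at 38.1 to 97.6 CPM after MCAO and 47.9 to 55.6 CPM in sham. The 6 ATPases summed to 687, 793, 776, 790 and 819 CPM in MCAO day 7 and to 887, 994, 880 and 1256 CPM in sham day 7, so that all MCAO libraries were lower. The highest of these sham values was that of sham day 7 D, one of the 4 libraries that stand apart, and the other 3 still lay above every MCAO value. No test was made of these sums.

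Across single genes, a call by the stricter rule, the study's own limits (adjusted p below 0.01, log2 fold change beyond ±0.58), was made for few members and for none before day 3. In MCAO against sham (edgeR's quasi-likelihood test, Benjamini-Hochberg over 19970 genes), 0 of 48 members were called at 3 h, where 0.110% of all genes tested were called, 0 at 12 h (0.411% of all genes) and 0 at 24 h (0.0901%). The members with an unadjusted p under 0.05 were 1, 10 and 5 at these times, and DESeq2 called 0 as well. On day 3 a single member was called, *Psmb8*, beside 4.02% of all genes. On day 7 *Psmb8*, *Psmb9* and *Psme1* were called, 3 of 48, beside 3.50% of all genes. Without the 4 libraries that stand apart, 35, 2, 19, 941 and 274 of all genes were called at the 5 times. With all libraries these numbers were 22, 82, 18, 802 and 698, so the shares at 12 h and on day 7 lean on those 4. With an adjusted p under 0.05 and no minimum of change, the counts were 0 at 3 h (0.280% of all genes), 0 at 12 h (1.39%), 0 at 24 h (0.230%), 2 on day 3 (8.23%) and 7 on day 7 (9.24%). The share of members called was thus at or below that of all genes at 3 h, 12 h, 24 h and day 3 under either rule. Where groups are said below not to overlap, the share of all genes without overlap is not given. By chance alone, 5 against 4 libraries separate in either direction at a rate of 0.016, and 4 against 4 at 0.029. Over many members and times some do so, and lack of overlap without a call is description only.

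The fold changes of the other members were small on the log2 scale. The median over the 48 members was −0.01 at 3 h, 0.19 at 12 h, 0.14 at 24 h, 0.11 on day 3 and −0.05 on day 7, where the medians of all genes were 0.00, 0.01, 0.02, 0.01 and 0.06. At 12 h and 24 h, 37 of 48 members lay above 0 each time, against 51.1% and 51.6% of all genes. Without the 4 libraries that stand apart, 35 members lay above 0 at 12 h, with a median of 0.19. The 95% interval of the log2 fold change stayed within ±0.58 for 28 members at 3 h, 18 at 12 h, 23 at 24 h, 23 on day 3 and 20 on day 7. For the other members that were not called, the interval does not exclude a change of that size. Scaling to the ERCC spike-ins moved the median of all genes to −0.10, −0.09, 0.14, −0.22 and 0.14 at the 5 times. The median of the members moved with it, to −0.11, 0.09, 0.27, −0.13 and 0.03, so that 30, 41 and 13 of 48 members lay above 0 at 12 h, 24 h and on day 3, against 37, 37 and 30 with TMM. The share of upward genes among the stricter calls of all genes moved from 81.8% to 64.3% at 3 h, from 93.5% to 77.9% on day 3 and from 59.2% to 82.4% on day 7.

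**Figure D2:**
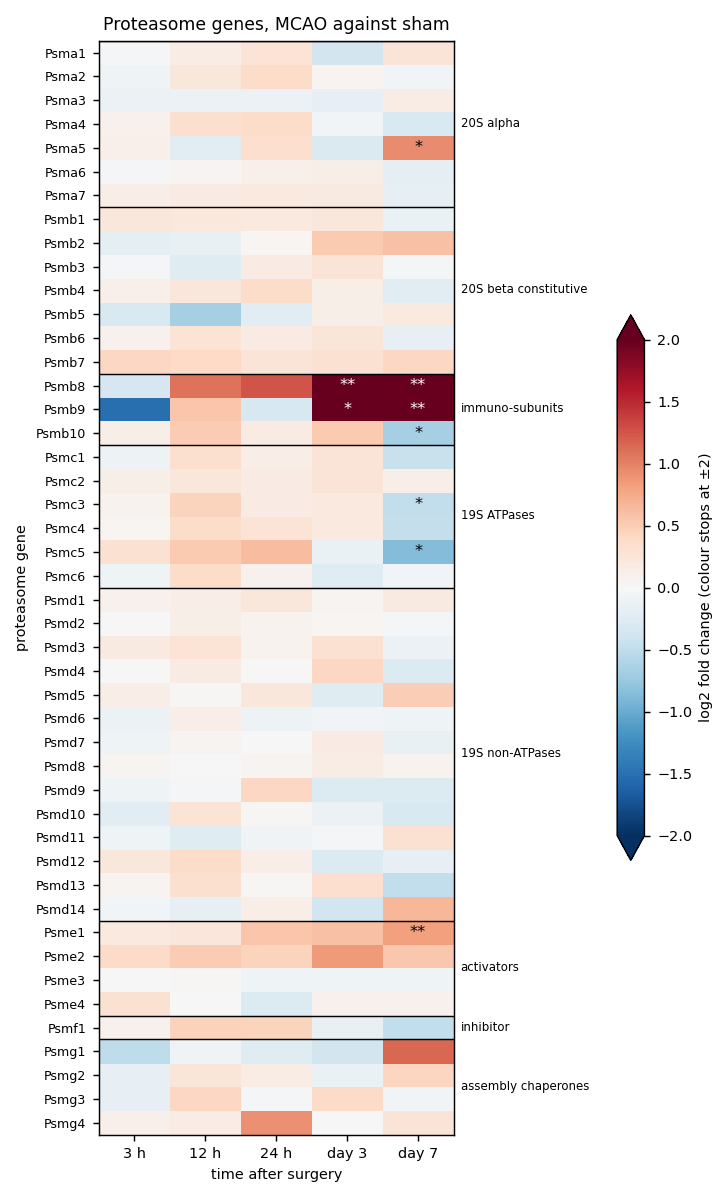
Log2 fold change of MCAO against sham (colour, ending at ±2) for 46 proteasome genes in rows, grouped by subcomplex, at the 5 times in columns. 1 star marks adjusted p under 0.05, 2 stars the stricter rule (adjusted p below 0.01 and a change beyond ±0.58). *Psmb8* and *Psmb9* are the darkest rows on day 3 and day 7, and *Psma8* and *Psmb11* are left out because of their few counts.

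*Psmb8*, the chymotrypsin-like subunit of the immunoproteasome, had the smallest p of all members on day 3 and on day 7. In control cortex it was at 2.23, 1.12, 1.13 and 2.28 CPM. At 12 h it stood at 6.3, 6.31, 6.26, 6.47 and 13.1 CPM in the MCAO libraries A to E and at 1.68, 5.21, 2.59 and 4.68 CPM in sham. The groups did not overlap, but the log2 fold change of 1.08 ± 0.51 (SE) missed both thresholds (adjusted p = 0.31). At 24 h the MCAO libraries were at 8.07, 9.35, 5.51 and 12.8 CPM and the sham libraries at 4.16, 4.42, 3.05 and 3.15 CPM, again without overlap and without a call (log2 fold change 1.25 ± 0.54, adjusted p = 0.49). On day 3 the MCAO libraries reached 6.94, 23, 45.4, 19.5 and 30.8 CPM, and the sham libraries had 2.54, 2.31, 1.87 and 0. All 5 lay above all 4, with a log2 fold change of 3.83 ± 0.54 (adjusted p = 2.9e-06). On day 7 the values were 15.6, 14.2, 45.2, 13.9 and 8.14 CPM after MCAO and 4.58, 2.33, 2.73 and 0 in sham, a log2 fold change of 3.03 ± 0.53 (adjusted p = 2.1e-04). Library A was the lowest on day 3, and library C was the highest on both days. With any single one of the 48 libraries left out, the fold change stayed between 3.44 and 4.11 on day 3 and between 2.46 and 3.51 on day 7, and the gene stayed called.

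*Psmb9*, the immuno-subunit that takes the place of *Psmb6*, was close to the detection limit until day 3. It stood at 1.67, 2.81, 1.69 and 1.71 CPM in control and between 0 and 3.65 CPM in the sham and MCAO libraries of 3 h, 12 h and 24 h. On day 3 the MCAO libraries had 4.27, 7.23, 16.5, 5.37 and 13.2 CPM and the sham libraries 2.18, 1.38, 1.4 and 3.28 CPM. The lowest MCAO value was above the highest sham value, and the log2 fold change of 2.15 ± 0.58 passed only the looser rule (adjusted p = 0.013). That call ended without MCAO day 3 C (1.84, adjusted p = 0.069), sham day 3 B (2.00, 0.052) or sham day 3 C (2.01, 0.052). On day 7 it stood at 5.77, 4.58, 12.5, 3.36 and 5.64 CPM after MCAO, and at 1.72, 0, 1.09 and 0 CPM in sham. These are 56 counts in 5 libraries against 5 counts in 4, a depth-scaled ratio of 10.5 with an exact 95% interval of 4.25 to 33.7 that covers counting error only. The log2 fold change was 3.17 ± 0.72 (adjusted p = 0.0031). Without MCAO day 7 C (2.78, adjusted p = 0.02), sham day 7 B (2.75, 0.02) or sham day 7 D (2.73, 0.028) the gene passed only the looser rule. Set against control in place of sham, MCAO day 7 had a smaller log2 fold change of 1.65 for *Psmb9*, which passed neither rule.

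*Psmb10*, the trypsin-like immuno-subunit, differed from the other two in level and in course. It was the most abundant of the 3, at 40.2, 33.2, 40.6 and 40 CPM in control cortex. On day 3 the MCAO libraries had 35.2, 40.7, 52.9, 32.2 and 61.3 CPM and the sham libraries 33.4, 36.5, 22.9 and 30.9 CPM, which overlap (log2 fold change 0.52 ± 0.20, adjusted p = 0.092). On day 7 it was lower after MCAO, with 16.7, 31.6, 39.9, 33.6 and 31.3 CPM against 43.5, 51.3, 51.8 and 47.9 CPM in sham, without overlap. This fall of −0.67 ± 0.20 on the log2 scale passed the looser rule (adjusted p = 0.023). It missed it without MCAO day 7 A (−0.51, adjusted p = 0.09), sham day 7 B (−0.64, 0.065) or sham day 7 D (−0.69, 0.056), and with ERCC scaling (−0.59, 0.093). Against control the day 7 value was −0.33 ± 0.20 (adjusted p = 0.47).

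*Psme1*, the α subunit of the 11S activator, was higher in every MCAO library of day 3 and day 7. On day 3 it stood at 51.8, 62.4, 54.4, 52.7 and 61.7 CPM after MCAO and at 31.9, 35.5, 40.2 and 42.6 CPM in sham (log2 fold change 0.59 ± 0.20, adjusted p = 0.058). On day 7 the values were 48.5, 62.1, 96.4, 49.9 and 48.9 CPM against 35.5, 34.5, 35.4 and 33.3 CPM, a rise of 0.82 ± 0.21 (adjusted p = 0.0081). Without MCAO day 7 C, its highest library, the fold change was 0.59 and no rule was passed (adjusted p = 0.074). Leaving out MCAO day 7 B or any of the 4 sham day 7 libraries left it between 0.78 and 0.83 with adjusted p from 0.014 to 0.039. *Psme2*, which encodes the partner β subunit, had fewer counts and wide groups. On day 3 it was at 10.1, 17.6, 26.5, 19 and 22 CPM after MCAO and at 6.17, 8.77, 14 and 13.6 CPM in sham, a log2 fold change of 0.85 ± 0.47 (adjusted p = 0.29) with an interval from −0.09 to 1.80. *Psme3*, a nuclear activator, had log2 fold changes from −0.08 to 0.03 at the 5 times, all with intervals between −0.41 and 0.34. *Psme4*, which encodes the activator PA200, ranged from 0.31 ± 0.16 at 3 h (unadjusted p = 0.051, adjusted p = 0.59) to −0.28 ± 0.17 at 24 h (adjusted p = 0.64) and was not called.

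None of the 3 constitutive counterparts was called at a single time. *Psmb5* was at 24.6, 15.8, 22, 28.8 and 31.7 CPM in MCAO day 3 and at 29, 14.8, 23.8 and 23.4 CPM in sham (log2 fold change 0.11 ± 0.28, interval −0.46 to 0.67). At 3 h its MCAO libraries (18.7 to 22.7 CPM) lay below all sham libraries (24 to 28.8 CPM) with a log2 fold change of −0.31 ± 0.28 that was not called (adjusted p = 0.83). At 12 h it was at 18.5, 20.4, 8.35, 9.41 and 26.2 CPM after MCAO and 12.3, 25, 48.4 and 17.9 CPM in sham, and was not called (−0.66 ± 0.28, adjusted p = 0.26). The highest sham value was that of sham 12 h C, one of the libraries that stand apart. Without it the log2 fold change was −0.15 (adjusted p = 0.89), and without all 4 it was −0.22 (adjusted p = 0.83). *Psmb6* stayed between 106 and 160 CPM in all MCAO libraries of day 3 and day 7, with log2 fold changes of 0.24 ± 0.13 and −0.16 ± 0.13 that were not called. *Psmb7* was between 75.6 and 118 CPM in them, with 0.31 ± 0.21 and 0.41 ± 0.21.

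**Figure D3:**
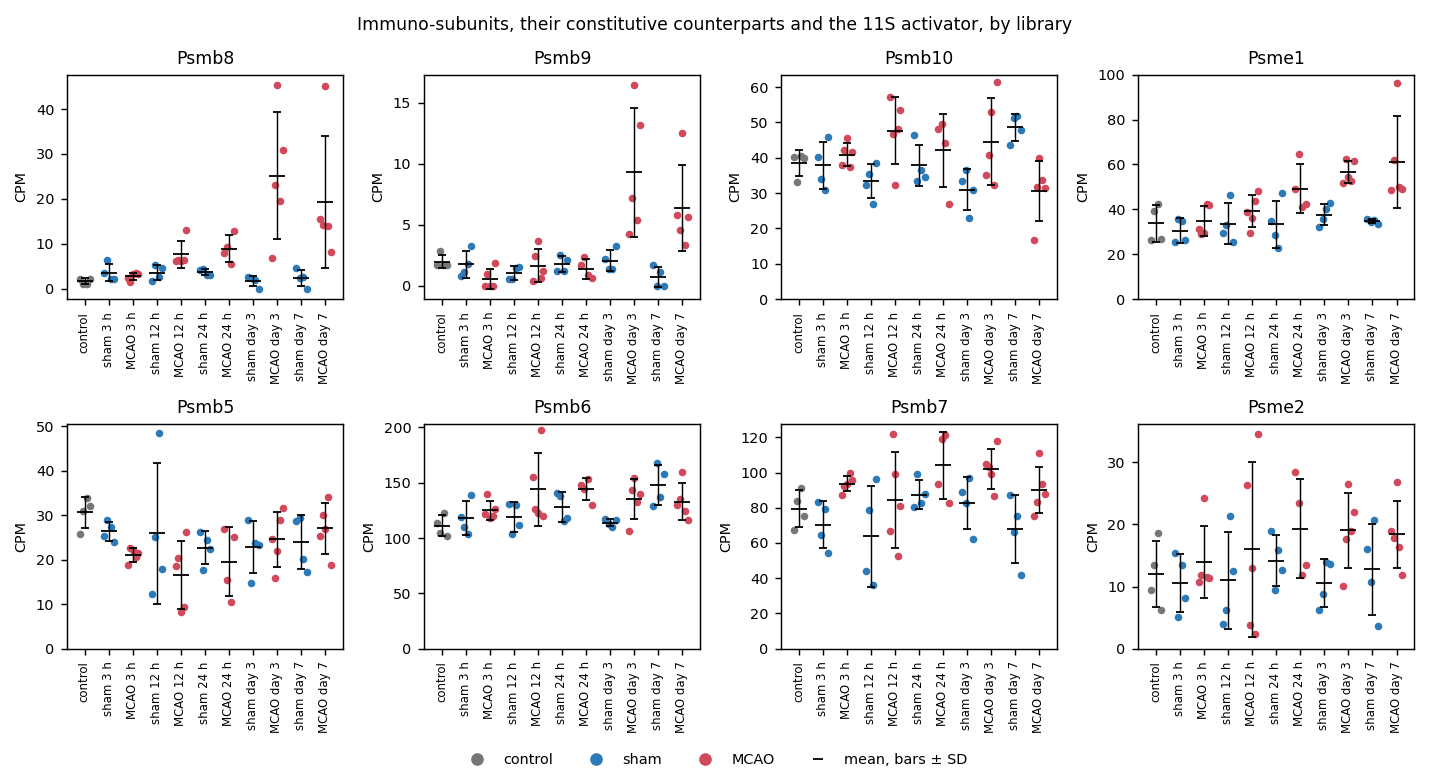
Level (CPM, linear axes) of the 3 immuno-subunits, their 3 constitutive counterparts and the 2 subunits of the 11S activator in each library, by group along the horizontal axis. Points are libraries (grey control, blue sham, red MCAO), and the black line and bars are mean ± SD. *Psmb8*, *Psmb9* and *Psme1* have no overlap between MCAO and sham on day 3 and day 7, and *Psmb10* lies lower after MCAO on day 7.

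The ratio of an immuno-subunit to its counterpart within a library does not depend on the scaling of that library. It was taken as log2 of the counts with 0.5 added to both genes and tested by an exact two-sided permutation test with adjustment over 15 tests. The smallest p that 5 against 4 libraries allow is 0.016, and with 4 against 4 at 24 h it is 0.029. For *Psmb8* over *Psmb5* the mean was −4.02 ± 0.60 in control (12 counts against 217). On day 3 the MCAO libraries were at −1.78, 0.54, 1.04, −0.55 and −0.04 and the sham libraries at −3.42, −2.56, −3.52 and −6.66. The difference of 3.88 had the smallest p possible (exact permutation p = 0.016, adjusted p = 0.04), and the MCAO group held 265 counts of *Psmb8* and 256 of *Psmb5*. The differences of 1.71 at 12 h and 3.09 on day 7 gave the same p values, and that of 1.46 at 24 h gave an adjusted p of 0.061 with groups that did not overlap. Without the 4 libraries that stand apart the difference at 12 h was 0.91 (adjusted p = 0.25). At 3 h the ratio differed by 0.04 (exact permutation p = 0.94).

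For *Psmb9* over *Psmb6* the ratio was higher after MCAO by 1.73 on day 3 and by 3.44 on day 7, without overlap (exact permutation p = 0.016 and adjusted p = 0.04 for each). Even so, 98 counts of *Psmb9* stood against 1414 of *Psmb6* in MCAO day 3. For *Psmb10* over *Psmb7* the direction was the opposite on day 7. The MCAO libraries were at −2.16, −1.39, −1.47, −1.47 and −1.48 and the sham libraries at −1.0, −0.37, −0.54 and 0.19, a difference of −1.16 (exact permutation p = 0.016, adjusted p = 0.04). The highest sham ratio was again that of sham day 7 D. Without the 4 libraries that stand apart, the same difference was −0.96 (adjusted p = 0.089), in a design whose smallest p is larger. The control libraries were at −1.04 ± 0.26, between both groups.

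**Figure D4:**
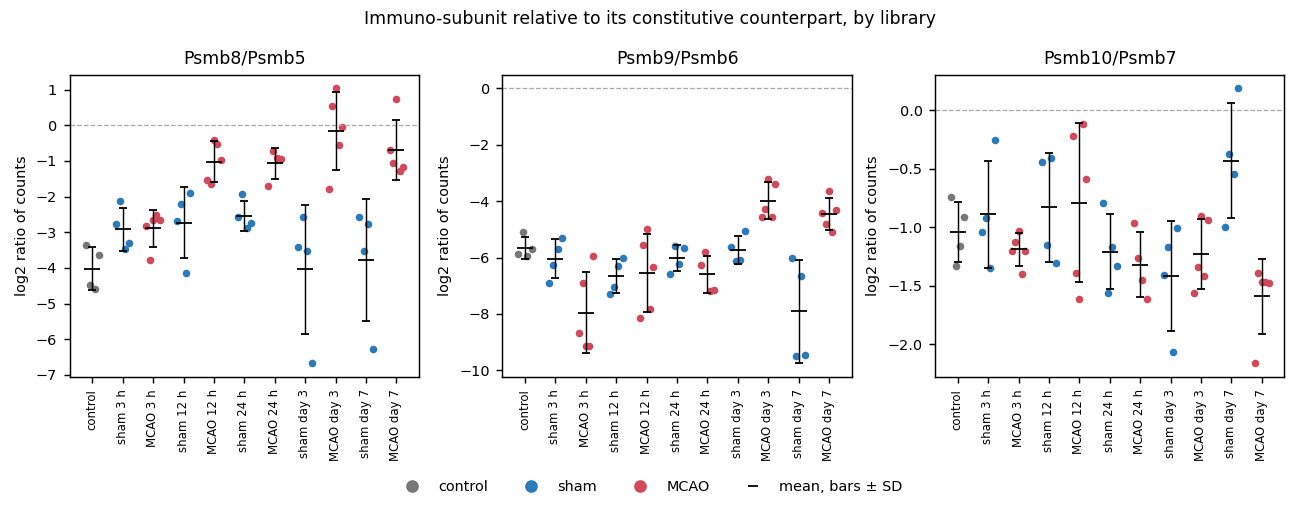
Log2 ratio of the counts of each immuno-subunit to those of its constitutive counterpart (0.5 added to both) in each library, by group along the horizontal axis. Points are libraries (grey control, blue sham, red MCAO), black line and bars are mean ± SD, and the dashed line marks equal counts. *Psmb8* over *Psmb5* reaches equal counts in MCAO day 3, *Psmb9* over *Psmb6* stays far below, and *Psmb10* over *Psmb7* is lower after MCAO on day 7.

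The promoters of these genes are shown since the immuno-subunits and their counterparts part company at the RNA level. *Psmb8* (chr17:34197721-34201454, + strand) and *Psmb9* (chr17:34181987-34187764, − strand) lie in the MHC region on either side of *Tap1*, the peptide transporter gene, and *Psmb5* and *Psme1* lie on chromosome 14 (GRCm38, Gencode vM21). *Psmb9* overlaps *Tap1*, *Psme1* overlaps *Emc9* and *Psmb8* overlaps *Gm20496* in that annotation, and no check of shared reads was made. The strand setting of the counting is not given in the sources used here. The 120 bases before the RefSeq start of 5 members (GRCm38.p6) are printed 5′ to 3′ on the strand of the gene. The stretches of *Psmb8*, *Psmb9* and *Psme1* lie wholly inside the Gencode gene span, beginning 354, 314 and 251 bases downstream of its outermost start, because RefSeq places the start further in. What they hold or lack therefore says nothing of the bases before the outermost start. Capitals mark a match to the gamma-activated site TTCNNNGAA in *Psmb8*, or to the antioxidant response element TGACNNNGC, on either strand, in *Psmb5* and *Psmb6*. *Psmb9* and *Psme1* hold no match in these stretches to either motif or to the interferon-stimulated response element core GAAANNGAA.
Psmb8 (chr17:34198075-34198194, +): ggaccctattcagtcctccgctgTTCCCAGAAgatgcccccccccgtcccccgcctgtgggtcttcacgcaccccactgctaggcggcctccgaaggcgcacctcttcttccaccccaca
Psmb9 (chr17:34187331-34187450, −): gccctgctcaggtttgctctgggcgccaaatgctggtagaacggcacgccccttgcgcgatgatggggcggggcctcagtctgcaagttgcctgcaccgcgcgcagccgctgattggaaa
Psmb5 (chr14:54617996-54618115, −): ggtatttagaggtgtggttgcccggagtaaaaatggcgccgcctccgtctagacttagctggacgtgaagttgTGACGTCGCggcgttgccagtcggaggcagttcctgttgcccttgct
Psmb6 (chr11:70525237-70525356, +): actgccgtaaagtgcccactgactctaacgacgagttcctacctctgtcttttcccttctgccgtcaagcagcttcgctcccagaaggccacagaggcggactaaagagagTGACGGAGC
Psme1 (chr14:55578374-55578493, +): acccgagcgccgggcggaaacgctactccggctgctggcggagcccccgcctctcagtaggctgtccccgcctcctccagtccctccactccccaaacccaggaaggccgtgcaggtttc

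RefSeq gave windows of 250 bases before to 50 after the start for 40 of the 48 members. The antioxidant response element letters, the class of site bound by the Nrf1 and Nrf2 factors, were found in 6 of 40 members (15%) and in 14.0% of all 27025 genes with such windows. The members were *Psmb5*, *Psmb6*, *Psmc6*, *Psmd9*, *Psmd12* and *Psme4*. The interferon-stimulated core was found in 7 of 40 (17.5%, all genes 9.8%), namely *Psmb3*, *Psmb4*, *Psmc2*, *Psmd4*, *Psmd9*, *Psme1* and *Psmg4*, and in *Psme1* it began 11 bases after the start. The gamma-activated letters were found in *Psmb8*, *Psmd2* and *Psmg1* (7.5%, all genes 9.6%). A match describes the letters of the window, and the motifs can overlap one another.

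Within the 20S core only *Psma5* was called among the α genes and none among the constitutive β genes at any single time against sham. *Psma5* was at 31.7, 24.9, 23.2, 32.1 and 23.2 CPM in MCAO day 7 and at 20.6, 11.2, 18.5 and 6.84 CPM in sham, without overlap (log2 fold change 0.94 ± 0.29, adjusted p = 0.034). The lowest sham value was that of sham day 7 D. The call ended without that library (0.69, adjusted p = 0.22), without sham day 7 B (0.84, 0.11), MCAO day 7 A (0.88, 0.067) or MCAO day 7 D (0.87, 0.075), and with ERCC scaling (0.98, 0.075). Control cortex stood at 18.4, 33.2, 32.2 and 20.6 CPM, with 2 libraries below and 2 above all MCAO day 7 values, and the log2 fold change of MCAO day 7 against control was 0.05 ± 0.28. *Psma3*, the α gene with the lowest mean effect, lay between −0.17 and 0.15 at all times, and each of its intervals was within −0.42 and 0.41.

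Among the 19S ATPases, *Psmc5* and *Psmc3* passed the looser rule on day 7, in the downward direction. These genes, like *Psmc1*, *Psmd4*, *Psmd12*, *Psmd13* and *Psmd14* in what follows, were chosen after their values were seen. *Psmc5* was at 66.3, 79.4, 52.9, 60.5 and 59.5 CPM after MCAO and at 91.5, 115, 95.4 and 159 CPM in sham, without overlap (−0.86 ± 0.23, adjusted p = 0.012). Sham day 7 D was again the extreme one, and without it the value was −0.68 (adjusted p = 0.11). *Psmc3* was at 152, 161, 159, 170 and 152 CPM against 188, 240, 177 and 292 CPM (−0.50 ± 0.17, adjusted p = 0.048). That call rests on a margin so thin that leaving out any of 28 of the 48 libraries ended it, without sham day 7 D the value was −0.36 (adjusted p = 0.28), and with ERCC scaling it was −0.37 (adjusted p = 0.2). Of the 6 ATPases all lay above 0 at 12 h (median 0.36) and at 24 h (0.17), 4 on day 3 (0.19) and 1 on day 7 (−0.47), beside all-gene medians of 0.01, 0.02, 0.01 and 0.06. With ERCC scaling the counts above 0 were 6, 6, 0 and 2, so that the direction on day 3 turned with the scaling. Without the 4 libraries that stand apart, 6 lay above 0 at 12 h (median 0.28) and 0 on day 7 (median −0.21). The lowest mean effect was that of *Psmc6* (0.01 ± 0.07) and the highest that of *Psmc2* (0.17 ± 0.07, adjusted p = 0.09).

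The libraries that stand apart differed from the others in 19S genes and in members of other subcomplexes. *Psmd13* was at 274, 321 and 375 CPM in sham 12 h A, MCAO 12 h D and sham day 7 D and at 75.4 CPM in sham 12 h C, where the other 44 libraries held 142 to 222 CPM. *Psmc1* was at 488, 559 and 540 CPM in the former and 143 CPM in the latter, outside a range of 203 to 385 CPM. *Psmd14*, the deubiquitinase of the 19S lid, went the other way, with 33, 22.4 and 21.4 CPM against 176 CPM and a range of 49.9 to 129 CPM. So did *Psma5* (10.6, 5.29 and 6.84 CPM, other libraries 11.2 to 39.7) and *Psmb2* (6.7, 4.12 and 6.39 CPM, other libraries 10.8 to 37.7). The mean of sham 12 h A, MCAO 12 h D and sham day 7 D was also set against the median of the other 44, on the log2 scale. *Psma8* aside, the values ran from −2.10 for *Psmg1*, −1.99 for *Psme2* and −1.91 for *Psmb9* to 0.90 for *Psmd13*. *Psmb8* was at −0.71. Without these 4 libraries the day 7 values were 0.71 for *Psma5* (adjusted p = 0.13), −0.65 for *Psmc5* (0.12), −0.34 for *Psmc3* (0.26) and −0.67 for *Psmb10* (0.059), so that none of these calls was kept. *Psmb9* (2.75, adjusted p = 0.024) and *Psme1* (0.80, 0.024) passed the looser rule only, and *Psmb8* (2.59, 0.0028) both.

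The 14 non-ATPases of the 19S particle had no member called at any single time against sham. Their medians ran from −0.09 on day 7 to 0.12 at 12 h. *Psmd3*, a scaffold subunit of the lid, had the highest mean effect (0.15 ± 0.07, adjusted p = 0.19) and *Psmd10*, an assembly chaperone also known as gankyrin, the lowest (−0.07 ± 0.10). The inhibitor *Psmf1* stood at 38.9, 32.5, 33.4, 38.2 and 38.7 CPM in MCAO 12 h and at 31.3, 31.8, 16.3 and 26.9 CPM in sham, without overlap and without a call (0.46 ± 0.22, adjusted p = 0.32). Its lowest value was that of sham 12 h C, without which the log2 fold change was 0.28 (adjusted p = 0.67). On day 7 its log2 fold change was −0.50 ± 0.22 (adjusted p = 0.16). Of the 4 assembly chaperones of the core none was called with all libraries. *Psmg4* was at 22.9, 20.1, 18.2 and 17.7 CPM in MCAO 24 h and at 8.91, 7.58, 12.2 and 13.1 CPM in sham, without overlap, and its log2 fold change of 0.91 ± 0.29 gave an unadjusted p of 0.0026 and an adjusted p of 0.22. *Psmg1*, with under 16 CPM in every library, ranged from −0.51 at 3 h to 1.15 on day 7 with standard errors of 0.43 to 0.47. Its day 7 value moved widely with single libraries. The gene was at 13.8, 8.65, 13.1, 14.4 and 5.64 CPM after MCAO and at 4.58, 1.4, 14.2 and 0.456 CPM in sham. The lowest of these was sham day 7 D, one of the 4 libraries that stand apart. Without sham day 7 C the log2 fold change was 2.43 and passed the stricter rule (adjusted p = 0.0026). With other single libraries left out it went down to 0.74, and the adjusted p up to 0.42.

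Averaged over the 5 times, the MCAO effect was called at adjusted p under 0.05 for 3 members, *Psmb8*, *Psme1* and *Psmb7*, where 14.3% of all genes were called. The values were 1.77 ± 0.24 (adjusted p = 3.8e-07), 0.47 ± 0.09 (2.1e-04) and 0.36 ± 0.09 (0.0061). *Psmb7* was the one constitutive subunit among them, with log2 fold changes of 0.41, 0.40, 0.25, 0.31 and 0.41 in order of time, none of them called on its own. At 3 h it was at 87.4, 92.6, 93.5, 99.5 and 95.7 CPM after MCAO and at 83, 64.5, 79.3 and 54.5 CPM in sham, without overlap. Scaled to the ERCC spike-ins, its mean effect was 0.29 (adjusted p = 0.096), and without the 4 libraries that stand apart it was 0.26 (adjusted p = 0.017). Of the 48 mean effects 38 lay above 0 (29 with ERCC scaling), with a median of 0.07, beside 54.3% of all genes and a median of 0.03. The 95% interval stayed within ±0.58 for 42 members. *Psme2* had a mean effect as large as that of *Psme1* (0.54 ± 0.21) but missed the threshold (adjusted p = 0.077), as did *Psmb9* (0.81 ± 0.33, adjusted p = 0.1).

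**Figure D5:**
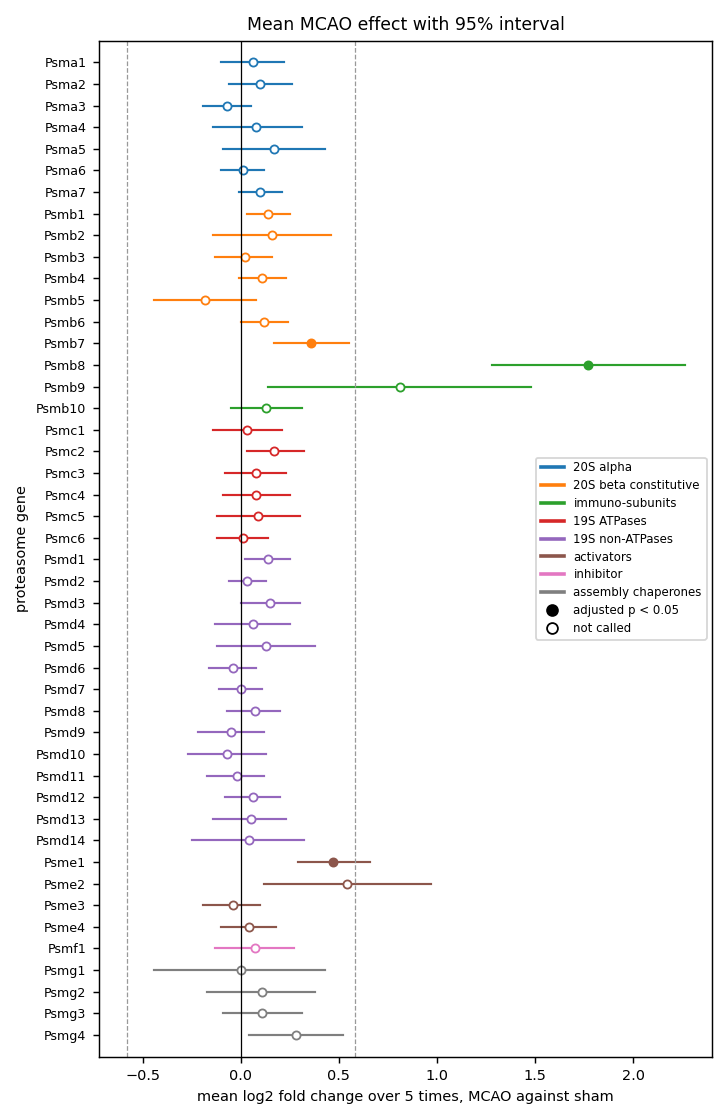
Mean log2 fold change of MCAO against sham over the 5 times for 46 proteasome genes, with its 95% interval, coloured by subcomplex. Filled circles are genes with adjusted p under 0.05 (*Psmb8*, *Psme1* and *Psmb7*), open circles are not called, and dashed lines stand at ±0.58. Most intervals lie within the dashed lines, and *Psmb8* lies far to the right.

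The effect of MCAO changed with time for 4 members, *Psmb8*, *Psmb9*, *Psmb10* and *Psmc5* (quasi-likelihood F test over the 5 times, adjusted p = 0.0052, 0.024, 0.034 and 0.023), where 2.15% of all genes were called. Without sham day 7 D *Psmb8* alone of these 4 kept the call, with adjusted p of 0.087 for *Psmc5*, 0.073 for *Psmb10* and 0.058 for *Psmb9*. The call of *Psmb9* also ended without sham 3 h D (0.053) and that of *Psmb10* without any of 9 single libraries (up to 0.084). In a direct contrast, the effect on day 3 and day 7 was larger than that at 3 h and 12 h by 3.05 ± 0.55 for *Psmb8* (adjusted p = 4.2e-04) and by 3.13 ± 0.72 for *Psmb9* (0.0065). It was smaller for *Psmc5* (−0.92 ± 0.23, 0.015) and for *Psmd12*, a 19S lid subunit (−0.52 ± 0.15, 0.044), whose call ended on leaving out any of 20 single libraries (adjusted p up to 0.086) and with ERCC scaling (−0.51, 0.19). *Psma8* passed as well, on 34 counts in all, and the call ended without sham 12 h A (adjusted p = 0.053) or sham 12 h D (0.058). These are 5 of 48 members beside 3.88% of all genes.

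The mean of the 5 sham groups against control gave no call, and no single sham time was tested against control. In the 5 sham groups against control, 0 of 48 members had an adjusted p under 0.05 (edgeR), 5 had an unadjusted p under 0.05, DESeq2 called 0, and 0.0501% of all genes were called. *Psmb8* was at 1.69 ± 0.653 CPM in control and its mean sham difference was 0.73 ± 0.56 on the log2 scale. The mean log2 ratio of *Psmb8* to *Psmb5* was −2.92, −2.73 and −2.53 in sham at 3 h, 12 h and 24 h. It was −4.04 in sham day 3, −3.78 in sham day 7 and −4.02 in control. A mean over the 5 sham groups can hide such a difference between early and late sham, which was not tested. MCAO was also set against the 4 control libraries, which these 3 comparisons share, with the stricter rule. At 24 h 0 members were called (0.280% of all genes), 10 had an unadjusted p under 0.05, and *Psmb8* had a log2 fold change of 2.34 ± 0.61 (adjusted p = 0.05). On day 3 *Psmb8* was called (3.85 ± 0.56, adjusted p = 7.8e-06), beside 3.10% of all genes. By the looser rule 4 members passed on day 3 (6.78% of all genes), *Psmb8*, *Psmb9* (2.21 ± 0.61, adjusted p = 0.017), *Psme1* (0.75 ± 0.21, 0.018) and, downward, *Psmd9*, a 19S assembly chaperone. *Psmd9* was at 53.6, 41, 48.5 and 40 CPM in control and at 25.1, 30.7, 31, 24.4 and 34.8 CPM in MCAO day 3, without overlap (−0.65 ± 0.18, adjusted p = 0.022). The sham libraries of day 3 also lay below control, at 33, 37.9, 31.8 and 38.9 CPM. Single libraries ended the calls of *Psmb9* (5 of 48, adjusted p up to 0.081), *Psme1* (3 of 48, up to 0.095) and *Psmd9* (3 of 48, up to 0.1), and ERCC scaling ended that of *Psme1* (0.43, adjusted p = 0.19). On day 7 *Psmb8* (3.47 ± 0.57, adjusted p = 1.2e-04) and *Psme1* (0.86 ± 0.21, adjusted p = 0.0099) were called, beside 1.50%, and the same 2 passed the looser rule (3.61% of all genes). At 24 h 0 members passed it (0.676%). The stricter call of *Psme1* on day 7 ended on leaving out any of 25 of the 48 libraries and, among those of the groups compared, was weakest without MCAO day 7 C (0.64, adjusted p = 0.11). With ERCC scaling it was 0.68 (adjusted p = 0.072).

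Markers of several cell types were also called on day 3 and day 7. *Psmb8* and *Psmb9* were higher then, whereas *Psmb10* was not called on day 3 and was lower on day 7. The part of these cell types in the result was not tested. Of 10 microglial markers 8 were called on day 3 and 6 on day 7 by the stricter rule, all higher after MCAO. Their summed level was 394 to 494 CPM in sham day 3 and 889, 1894, 3696, 2303 and 3407 CPM in MCAO day 3 libraries A to E. The lowest was library A and the highest library C, as for *Psmb8*. In MCAO day 7 it was 1315, 1603, 5190, 1262 and 1755 CPM, with library C again the highest, against 533 to 663 CPM in sham. The 10 markers of monocytes and dendritic cells summed to 25 to 38.9 CPM in sham day 3 and to 49.1 to 1166 CPM in MCAO day 3, with 6 called, and to 21 to 28 against 140 to 4231 CPM on day 7, with 5 called. The 4231 CPM were those of library C. At 12 h the neutrophil markers reached 1696 CPM in MCAO library E, which also had the highest *Psmb8*, and 12.2 to 175 CPM in the other 4, with 2.22 to 3.13 CPM in sham and 2 of 7 tested genes called. Neutrophil markers had 2 of 7 tested genes called on day 3 (0 to 3.23 CPM in sham, 4.8 to 608 after MCAO) and 0 on day 7 (0.456 to 4.58 and 5.64 to 20.2). Of the 10 markers of T and NK cells, 6 had 10 counts or fewer in all 48 libraries, the CD3 genes *Cd3d*, *Cd3e* and *Cd3g* among them. The 4 that were tested summed to 20 to 45.9 CPM in MCAO day 3 and 11.2 to 48.3 CPM in sham. Of these 4 tested genes, 0 were called on day 3 and 1 on day 7, which was lower after MCAO. Neuronal markers summed to 8334 to 12151 CPM in MCAO day 3 and 11901 to 13600 CPM in sham, and to 6643 to 10580 CPM and 11650 to 13746 CPM on day 7, with 1 of 10 called on day 3 and 2 on day 7, all lower. Of 6 astrocyte markers 2 and 3 were called on these days, of 6 endothelial markers 2 and 0, and of 6 oligodendrocyte markers 0 and 1, all higher and by the stricter rule.

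The interferon pathway and the peptide loading route, which the immuno-subunits serve, also moved. Of 26 such genes 24 were tested, and 12 on day 3 and 8 on day 7 were called by the stricter rule, all higher after MCAO. The median log2 fold change was 1.61 and 1.66. *Tap1*, the transporter subunit next to *Psmb9*, rose by 2.64 ± 0.52 on day 3 (adjusted p = 4.4e-04), *B2m*, the light chain of MHC class I, by 1.91 ± 0.28 (7.1e-06), and *H2-K1*, a class I heavy chain, by 2.04 ± 0.34 (3.2e-05). *Nlrc5*, the transactivator of class I genes, had 2.98 ± 1.08 on day 7 and was not called (adjusted p = 0.073). *Ifnb1* was at 0 in all 48 libraries, which does not exclude a level too low for this depth, and *Ifng* had 10 counts or fewer in all.

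In the rest of the system around the proteasome, calls at single times came from shuttle and segregase genes only. Among 5 regulators and assembly factors in the tables and 10 receptors and enzymes that bind the particle, 0 genes had an adjusted p under 0.05 at any of the 5 times, and their medians lay between −0.19 and 0.22. The shares of all genes past this rule were 0.280%, 1.39%, 0.230%, 8.23% and 9.24% at these times. Of 8 shuttle and segregase genes tested, 1 passed it at 12 h, 2 on day 3 and 2 on day 7. *Vcp*, the unfoldase that hands ubiquitinated proteins to the proteasome, rose by 0.59 ± 0.15 on day 3 (adjusted p = 0.009) and passed the stricter rule too. *Rad23b*, a shuttle, rose at 12 h (0.50 ± 0.12, 0.018), and *Ubqln4* fell on day 7 (−0.62 ± 0.17, 0.013). *Ubqln2* was lower on day 3 (−0.73 ± 0.24, 0.047) and higher on day 7 (0.75 ± 0.25, 0.047). Of 6 ubiquitin genes 0 passed at a single time.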

How the data were processed

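RNA of 48 mouse cortex samples in 11 groups was sequenced with QuantSeq 3′ FWD. The deposited tables hold raw counts per gene: the authors trimmed reads with Trimmomatic, removed ribosomal reads with SortMeRNA, aligned to GRCm38 with ERCC sequences by STAR (2.5.2b) and counted on Gencode vM8 by htseq-count (union mode). The strand setting is not given in the sources used here. A deposited matrix of normalized values was not used. Symbols came from Gencode vM21, which matched 46488 of 46983 gene IDs. Lines that name no gene were left out (median 23.5% of reads without a feature, 0.400% ambiguous and 33.5% not unique), and no 2 libraries were identical. The 19970 genes whose counts summed to more than 10 were scaled by TMM and tested in one fit of all groups with edgeR 4.0.16 (quasi-likelihood, R 4.3.3; SE as the absolute log2 fold change over the root of F), with Benjamini-Hochberg adjustment. Ratios were tested with scipy. The thresholds of the study and a looser one (adjusted p under 0.05) were used.

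Reads of 3′ tags do not grow with transcript length. Reads shared with the pseudogenes Psmb5-ps, Psmb6-ps, Psmb6-ps2 and Psmb7-ps2 may be split or lost. The members, the lists and the tests were chosen with earlier results of these data known. Genes were named where they were inducible subunits or their constitutive counterparts, were called by the stricter rule, or had the highest or lowest mean effect of their subcomplex. *Psma7*, *Psmb4*, *Psmc1*, *Psmc3*, *Psmc5*, *Psmd4*, *Psmd9*, *Psmd12*, *Psmd13*, *Psmd14*, *Psma8*, *Psmb2*, *Psme4* and genes outside the proteasome were named after their values were seen. Groups share replicate letters, but samples with the same letter did not deviate together (20 pairs of groups, correlations from −0.34 to 0.19), so no pairing was used. The alternatives were DESeq2 1.42.0 size factors, ERCC scaling, 2 other filters on low counts, the DESeq2 test, only the groups compared, the replicate letter as a block, each library left out, and 1 count in place of 0.5 in ratios. Leaving out 4 libraries was chosen after seeing the data. The steps were tested on simulated data.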

Additional observations from a re-analysis of the deposited data

Results flagged for a closer look

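In 286 sets of 4 or 5 libraries, a library lay far from the others of its group in 26 (9.09%), where chance gives about 1 in 20. *Psmb8* was at 13.1 CPM in MCAO 12 h E (others 6.26 to 6.47) and 45.2 CPM in MCAO day 7 C (others 8.14 to 15.6). *Psmb9* was at 12.5 CPM in the latter (others 3.36 to 5.77) and 2.81 CPM in control B (others 1.67 to 1.71), and *Psmb10* at 33.2 CPM in control B (others 40 to 40.6). *Psme1* was at 96.4 CPM in MCAO day 7 C (others 48.5 to 62.1), *Psme2* at 24.3 CPM in MCAO 3 h C (others 10.8 to 11.8). In MCAO day 7 C the immuno-subunits summed to 97.6 CPM (others 38.1 to 50.9) and the 19S non-ATPases to 2017 CPM (others 1840 to 1869).

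*Psme3* stood apart in sham 3 h A (71.2 CPM, others 89.8 to 93.2), sham 24 h B (117 CPM, others 89.7 to 92.6), MCAO 24 h A (71.4 CPM, others 98.7 to 102) and MCAO day 3 D (66.4 CPM, others 85.9 to 93.5). *Psma5* was at 37.8 CPM in MCAO 3 h B (others 17.6 to 21.9) and 39.7 CPM in sham day 3 B (others 23.4 to 25.3), and *Psma3* at 77.8 CPM in sham 24 h A (others 109 to 114). *Psmf1* was at 24.9 CPM in sham day 3 B (others 35.5 to 35.9), *Psmg4* at 21.1 CPM in sham 12 h C (others 11.2 to 12) and *Psmg1* at 12.7 CPM in sham 3 h A (others 7.17 to 8.06). *Psmb11* was present in 1 library of its group at 0.779 CPM (sham 12 h D), 1.09 CPM (sham day 7 C) and 0.595 CPM (MCAO day 7 C), the others being at 0. The constitutive β ring summed to 826 CPM in MCAO 3 h B (others 769 to 779) and 973 CPM in sham day 7 B (others 796 to 825), and the immuno-subunits to 37.1 CPM in control B (others 43.5 to 44.1) and 51.7 CPM in sham 24 h A (others 39.8 to 40.9).

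The effect of MCAO differed between the late times (day 3 and day 7) and the early ones (3 h and 12 h) for 5 members, by 3.05 for *Psmb8*, 3.13 for *Psmb9*, 4.71 for *Psma8*, −0.92 for *Psmc5* and −0.52 for *Psmd12* on the log2 scale.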

How the results depend on the processing

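*Psmb8* kept its stricter call on day 3 and day 7 under all alternatives run. The count of members called on day 3 was 1 and became 2 with filterByExpr, with the DESeq2 test and without the 4 libraries that stand apart (1 to 2 with single libraries left out). On day 7 it was 3 and became 1 without those 4 libraries (1 to 3 with single libraries left out). For the mean effect it was 3 and became 6 with the DESeq2 test (3 to 5 with single libraries left out). For late against early effects it was 5 (3 to 5), and for the test over all times 4, which became 1 without the 4 libraries (1 to 5). Against control, the count with only the 2 groups in the fit was 1 at 24 h and 1 on day 7, and with DESeq2 it was 3 on day 3. Without the 4 libraries the ratio differences of *Psmb8* to *Psmb5* were 0.91 at 12 h, 3.88 on day 3 and 2.26 on day 7, those of *Psmb9* to *Psmb6* 1.73 and 2.93 on day 3 and day 7, and that of *Psmb10* to *Psmb7* −0.96 on day 7. With single libraries left out these ranged over 1.24 to 1.99, 3.01 to 4.37, 2.26 to 3.5, 1.53 to 1.96, 2.91 to 4.07 and −1.35 to −0.96. Their adjusted p then stayed above 0.05 because smaller groups cannot reach it, which says nothing about stability. Of the 103 named values 0 of those called reversed, and 64 of 1523 uncalled values under the alternatives changed sign. The cause was not tested.

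With the replicate letter as a block the counts of members called were 0, 0, 0, 1 and 2 at the 5 times, where *Psme1* on day 7 was 0.78 (adjusted p = 0.014), and 3, 5, 4 and 0 for the mean effect, late against early effects, the test over all times and sham against control. *Psmb8*, *Psmb9*, *Psma8* and *Psmb11* have few counts, which limits what depth can show of them in sham and control.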
